A study of Mus musculus with 4 samples.

Results

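The members described here are the accessible chromatin regions assigned to 9 genes of the Hedgehog pathway: Ptch1, Smo, Cdon, Boc, Gas1, Hhip, Gli1, Gli2 and Gli3. They number 146 of 110110 regions, of which 95449 had an assigned gene. The assay was ATAC-seq, where a transposase cuts and tags open DNA. The cells were fibroblastic reticular cells (FRCs), the fibroblasts that form the scaffold of lymph nodes. A region joins deposited windows of 300 bp with gaps of 100 bp or less. Each region was represented by its best window, chosen by the counts summed over the 4 libraries, and was given the protein-coding RefSeq gene that this window's midpoint overlapped, or else the nearest within 100 kb. Genotype labels were not used to merge windows or to choose the best one. A window high in either genotype could still have the largest sum. How the authors selected their windows is unknown, so an influence of genotype on that selection was not tested. The 9 genes themselves were selected with earlier results of these data known, so their counts below are descriptions. Assignment by distance leaves the gene on which a region acts unknown.

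The study compared 2 control libraries with 2 libraries called Notch2_cKO. Controls were Notch2 fl/fl littermates without Cre. Notch2_cKO mice carried Ccl19-Cre with Notch2 fl/fl, so that Cre is driven by Ccl19 sequence and recombination is aimed at cells in which that driver is active. By the labels, all mice were female, 12 weeks old and on the C57BL/6 background, and both genotypes carried the floxed Notch2 allele. Counts at Y-linked genes in control 2, given below, are at odds with the label of sex. Each library came from a pool of 6 mice, from brachial, axillary and inguinal nodes, with 50000 cells sorted as BP3hi Pdpn+ CD31- CD45-. The p-values below measure the spread between these pools, of which there were 2 per genotype.

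In the Hedgehog pathway the ligand binds Ptch1, which otherwise holds the membrane protein Smo inactive, and active Smo changes the Gli transcription factors from repressors to activators. Cdon, Boc and Gas1 are cell-surface coreceptors that help the ligand reach Ptch1, whereas Hhip binds the ligand and keeps it away. Gli2 is chiefly an activator, Gli3 chiefly a repressor, and Gli1 is an activator that is itself a widely used target gene of the pathway. In many organs the ligand comes from epithelium and fibroblasts are the responding cells.

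Promoters of 7 of the 9 genes matched the RefSeq sequence table of build GRCm38.p6 (mm10). The window of 250 bases before the start is shown for Gas1, Smo and Gli3, where an accessible region lay on or beside it and did not pass the test of genotype below. Sequences run 5′ to 3′ on the gene's strand, and capitals mark CG dinucleotides.
Gas1, chr13:60177536-60177785, minus strand: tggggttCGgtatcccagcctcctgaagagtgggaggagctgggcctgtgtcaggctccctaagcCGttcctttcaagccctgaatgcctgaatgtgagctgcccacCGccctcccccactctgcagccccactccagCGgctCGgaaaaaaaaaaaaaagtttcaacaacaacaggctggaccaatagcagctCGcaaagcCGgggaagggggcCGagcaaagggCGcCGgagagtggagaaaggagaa
Smo, chr6:29735247-29735496, plus strand: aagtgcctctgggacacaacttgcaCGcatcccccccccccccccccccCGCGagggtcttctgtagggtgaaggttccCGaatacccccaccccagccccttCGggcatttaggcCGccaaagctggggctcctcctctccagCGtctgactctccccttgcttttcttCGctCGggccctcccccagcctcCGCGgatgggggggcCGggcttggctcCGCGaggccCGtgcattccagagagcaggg
Gli3, chr13:15463473-15463722, plus strand: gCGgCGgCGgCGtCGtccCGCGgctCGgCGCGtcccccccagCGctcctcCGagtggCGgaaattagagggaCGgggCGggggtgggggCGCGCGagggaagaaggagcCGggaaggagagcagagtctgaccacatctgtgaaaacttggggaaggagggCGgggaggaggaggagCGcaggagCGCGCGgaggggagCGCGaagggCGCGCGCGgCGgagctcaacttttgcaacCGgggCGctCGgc

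The windows of Gas1, Smo and Gli3 held 10, 15 and 34 CG dinucleotides, against a median of 6 over 32851 promoters. At least as many as in the Gas1, Smo and Gli3 windows were found in 37.8%, 27.3% and 3.53% of promoters. The Gas1 and Smo windows overlapped their regions and the Gli3 window lay 23 bp from its region. On either strand, the letters GACCACCCA, a GLI consensus, occurred in 0 of the 7 matched promoters and in 0.225% of all. The letters TGGGAA, the core bound by RBPJ, the DNA-binding partner of Notch, occurred in 0 of 7 and in 21.6% of all. These matches describe only the windows searched.

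The counts in best windows totalled 12340742 to 30260067 per library. Levels are given as CPM, counts scaled to the library total and adjusted for a loess trend of each library on level, always for a window of 300 bp, so that levels of different regions may be compared. Notch2, the targeted gene, measured 55.3 and 57.5 CPM at its start in the controls and 55.3 and 46.2 in Notch2_cKO (log2 change -0.14, SE 0.10, adjusted p = 0.344, edgeR), which does not check the deletion, since the place of the floxed part was not used here. All 12 FRC marker genes had regions, with summed CPM of 1536 to 1616 over the 4 libraries. By edgeR on summed counts 1 of them was higher, Pdgfra (log2 0.46), and 0 lower. Leukocyte markers summed to 117 to 132, with 0 higher and 1 lower, Ms4a1 (log2 -1.39). Endothelial markers summed to 369 and 367 in the controls and to 456 and 455 in the Notch2_cKO libraries, with all 9 genes having regions. Tek (81.4 and 81.3 to 126 and 133) and Cdh5 (79.9 and 85.9 to 124 and 117) were higher by edgeR and made up most of that difference. The other endothelial genes did not pass. Tie1, Flt4, Pecam1 and Lyve1 had log2 changes of 0.45, 0.23, 0.17 and 0.08, and Kdr, Prox1 and Emcn of -0.20, -0.12 and -0.08. Adventitial and progenitor fibroblast markers summed to 626 and 598 against 652 and 671, with Cd34 and Sema3c higher. Mural markers summed to 656 to 694, with Rgs5 higher (log2 0.41). The part of these cell types in the results below was not tested. Control 2 held 95 to 221 counts at each of 4 Y-linked genes although all pools are labelled female, and the other libraries held 0 or 1. The counts of calls over all member regions and over the other pathway lists are therefore also given without it. Named member regions that lost their call in that fit are marked. Other values use all 4 libraries unless stated. In bulk cells, a change in the share of a cell type and a change in accessibility per cell cannot be told apart.

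Of the 146 regions, Notch2_cKO had 27 above and 14 below control at an adjusted p below 0.05 in edgeR's quasi-likelihood test, with Benjamini-Hochberg adjustment over all 110110 regions. That is 18.5% higher and 9.59% lower, beside 12.4% and 11.2% of all regions, or 28.1% against 23.6% in either direction. Of the 27 regions, 13 were assigned to Gli2 and 7 to Gli3. Without Gli2 the other 94 regions gave 14 higher and 9 lower, 24.5% in all. The receptors, coreceptors and decoy together had 7 higher and 8 lower of 65, and the Gli factors 20 higher and 6 lower of 81. The median log2 change (Notch2_cKO over control) was 0.04 in the 146 regions and 0.01 over all regions.

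Both Notch2_cKO libraries lay above both controls in 56 of the 146 regions and below them in 41. The groups thus did not overlap in 66.4% of the members and in 59.8% of all regions. Changes of at least 2-fold among called regions were found upward in 19 members (13.0%, against 5.49% of all) and downward in 3 (2.05%, against 4.41%). Of those 19, 12 were at Gli2. Without control 2 the calls among the 146 regions were 21 higher and 4 lower, in a fit that called 8.04% and 7.47% of all regions. Without control 1 they were 24 and 7 (9.17% and 7.3% of all), without Notch2_cKO 1 they were 22 and 7 (10.8% and 8.9%), and without Notch2_cKO 2 they were 31 and 17 (14.1% and 13.3%). DESeq2 did not call 12 of the 25 called regions named below, with adjusted p from 0.105 to 0.366: all those of Ptch1, Boc and Gas1, the lower ones of Cdon and Gli3, and 4 of Hhip. With centring of every library on its median log count, the calls were 23 higher and 21 lower (10.9% and 16.1% of all regions). The higher share of all calls went from 52.5% to 40.5%.

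**Figure D1:**
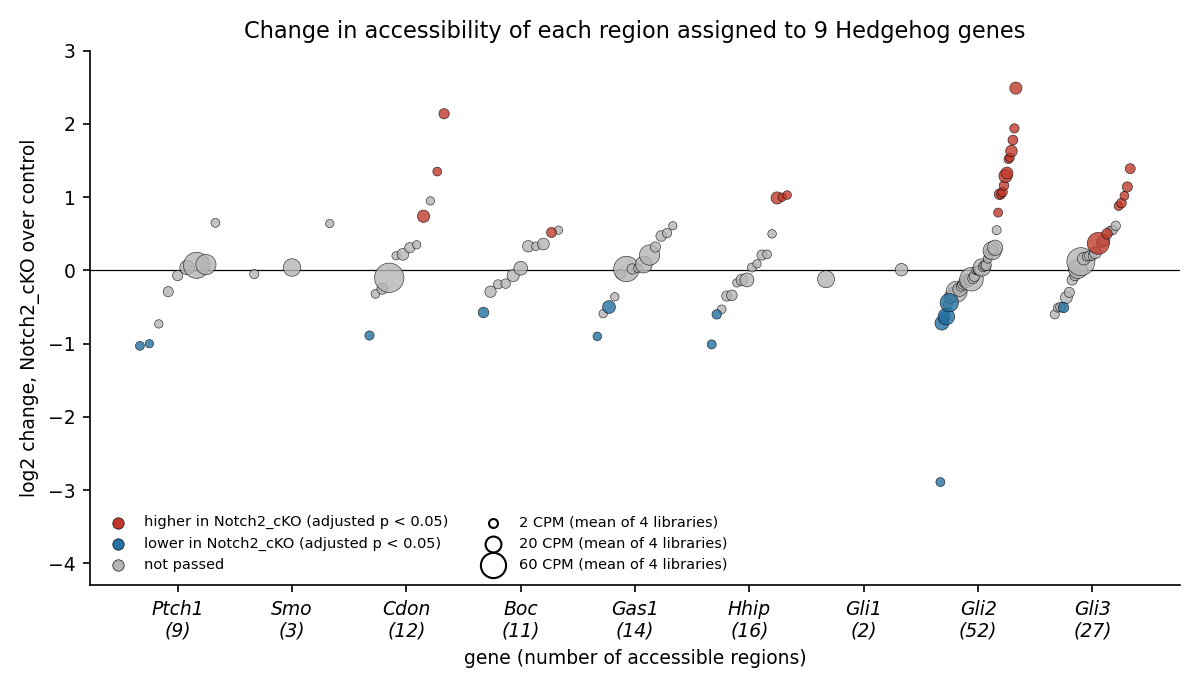
Log2 change in accessibility (Notch2_cKO over control, vertical axis) of each of the 146 regions, grouped by gene with the number of regions in brackets and ordered by change within a gene. Point area grows with the mean CPM of the 4 libraries and colour gives the edgeR call; the large points lie near 0 and the changes of 1 or more in log2 are in small points, most of them at Gli2.

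The most accessible region of each gene did not pass the test of genotype. Averaged over the 4 libraries it was 83.8 CPM for Cdon, 75.8 for Gli3, 64.9 for Ptch1, 61.5 for Gas1, 51.8 for Gli2, 25.8 for Smo, 24.1 for Gli1, 13.9 for Hhip and 13.4 for Boc. In this order the ranges over libraries overlapped between Cdon and Gli3, Ptch1 and Gas1, Smo and Gli1, and Hhip and Boc, and no other neighbours overlapped. In edgeR 0 of these 9 regions passed at an adjusted p below 0.05 (0 also at an unadjusted p below 0.05, and 0 in DESeq2), against 13.8% of such regions over the 13383 genes with 2 or more. Other scalings brought 2 of them past the threshold. For Cdon the log2 change was -0.10 and became -0.34 with TMM (adjusted p = 0.0138, edgeR), -0.33 with DESeq2 size factors (0.0165) and -0.42 with each library centred on its own median (0.00559). For Gli2 it was -0.12 and became -0.36 with that centring (adjusted p = 0.0229, edgeR). Of 17 member regions at 20 CPM or more, 3 passed, and 12.3% of all such regions did. Regions over a promoter window passed in 9.57% of cases over all genes, and 0 of the 4 among the members did in edgeR. Those of Smo, Gas1 and Gli2 overlapped a window of their own gene. The other lay 77074 bp beyond the 3′ end of Gli3, on a window not listed for Gli3.

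**Figure D2:**
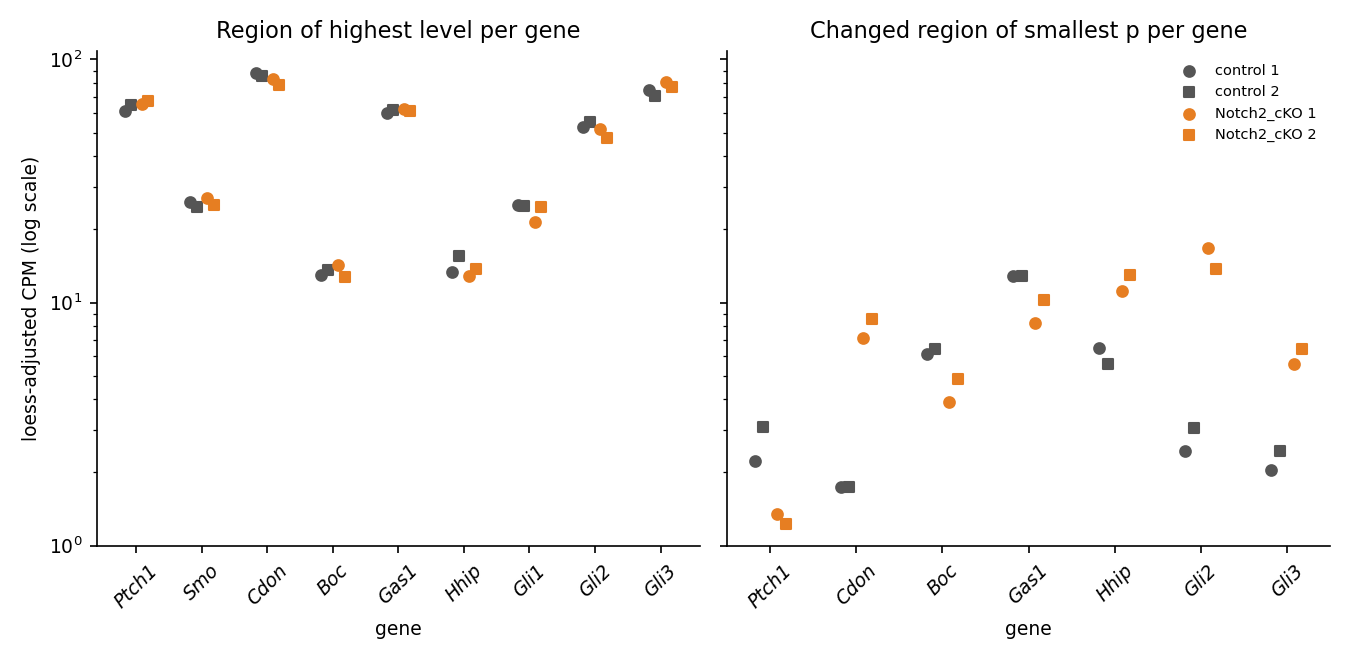
Loess-adjusted CPM (vertical axis, log scale) in each of the 4 libraries for the region of highest level of each gene (left) and the changed region of smallest p of each gene that has one (right). On the left the 4 libraries of a gene lie close together; on the right the Notch2_cKO libraries are apart from the controls, by the most at Gli2 and Cdon.

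Ptch1, the ligand receptor, had 9 regions, 0 called higher and 2 lower, and both lower ones were minor. The highest lay within the gene at chr13:63567701-63568350 and measured 61.1 and 65.2 CPM in the controls and 65.5 and 67.6 in Notch2_cKO (log2 change 0.07, SE 0.09, adjusted p = 0.611, edgeR). The region nearest the listed start, 665 bp before it, had 35.6 and 34.6 CPM against 36.3 and 38.1. In both, the Notch2_cKO libraries were above the controls by a small margin, without passing the test, and the sign turned with TMM (log2 -0.12 and -0.02). A minor region within the gene, chr13:63544851-63545250, measured 2.22 and 3.09 CPM in the controls and 1.35 and 1.23 in Notch2_cKO (log2 -1.03, SE 0.26, adjusted p = 0.00739, edgeR). Both Notch2_cKO libraries were below both controls there, and the call was lost without control 2 (log2 -0.72, adjusted p = 0.16) and in DESeq2 (adjusted p = 0.115). A fainter one 61040 bp beyond the 5′ end had 1.17 and 1.29 CPM against 0.542 and 0.749 (log2 -1.0, adjusted p = 0.0462, edgeR). It did not pass without control 1 (adjusted p = 0.134), control 2 (0.273) or Notch2_cKO 1 (0.297), nor with TMM (0.0502).

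Smo, the membrane protein that passes the signal on, had 3 regions, and 0 passed the test. Its start region, chr6:29735251-29735750, overlapped the promoter shown above and measured 26 and 24.8 CPM in the controls and 27.0 and 25.3 in Notch2_cKO. The groups overlapped (log2 0.04, SE 0.12, adjusted p = 0.829, edgeR). Its other regions had log2 changes of -0.05 and 0.64.

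Cdon, a coreceptor of the immunoglobulin superfamily, had 3 higher and 1 lower region out of 12. The lower one is the region nearest the start that RefSeq's promoter table lists, which lies inside the gene, 30576 bp from the highest region at the gene's outer 5′ end. At that outer end, chr9:35421151-35421800 measured 87.7 and 85.6 CPM in the controls and 83.2 and 78.5 in Notch2_cKO (log2 -0.10, SE 0.09, adjusted p = 0.456, edgeR). Both Notch2_cKO libraries were slightly below the controls. At 59078 bp beyond the 5′ end, chr9:35362301-35362600 had 1.74 CPM in each control and 7.13 and 8.55 in Notch2_cKO. This was a 4.42-fold gain (log2 2.14, SE 0.20, adjusted p = 3.61e-07, edgeR), and its 20 neighbouring regions had a median log2 change of 0.08. The raw counts there were 39, 44, 220 and 111.

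Within Cdon, chr9:35486401-35487150 measured 6.61 and 7.46 CPM in the controls and 11.6 and 12.1 in Notch2_cKO (log2 0.74, adjusted p = 0.00126, edgeR). Another intragenic region, 3372 bp from the 5′ end, had 1.30 and 0.765 CPM against 2.80 and 2.30 (log2 1.35, adjusted p = 0.00166, edgeR). In both, the Notch2_cKO libraries were above the controls, and the 3 calls upward at Cdon held in all 15 alternatives run for single regions. The lower region, chr9:35460551-35461250, 8824 bp past the listed start, had 3.04 and 3.40 CPM against 1.57 and 2.07 (log2 -0.88, adjusted p = 0.00965, edgeR). Its call was lost without control 2 (adjusted p = 0.0728), without Notch2_cKO 1 (0.175) and in DESeq2 (0.162).

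Boc, the coreceptor related to Cdon, had 11 regions with 1 higher and 1 lower. Its highest region, within the gene at chr16:44555851-44556450, measured 13.0 and 13.6 CPM in the controls and 14.2 and 12.7 in Notch2_cKO, which overlapped. The region nearest a gene end had 7.55 and 7.66 CPM against 5.35 and 7.59 (log2 -0.29, adjusted p = 0.272, edgeR), and passed only without Notch2_cKO 2 among the alternatives (adjusted p = 0.037). The lower region, 6730 bp outside the gene, had 6.15 and 6.45 CPM against 3.89 and 4.86 (log2 -0.57, adjusted p = 0.0272, edgeR). The higher one, 67280 bp outside, had 3.16 and 3.69 against 5.02 and 4.85 (log2 0.53, adjusted p = 0.0471, edgeR). Neither call held without control 1 (adjusted p = 0.077 and 0.317), control 2 (0.15 and 0.105) or Notch2_cKO 1 (0.322 and 0.175).

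Gas1, a lipid-anchored coreceptor, had its highest region at its start. There, chr13:60177351-60177850, over the promoter shown above, measured 60.1 and 61.8 CPM in the controls and 62.4 and 61.5 in Notch2_cKO (log2 0.02, SE 0.09, adjusted p = 0.882, edgeR). The groups overlapped. The sign at the start region turned with scaling (log2 -0.16 with TMM, -0.15 with DESeq2 size factors), without passing the test. Of the 14 regions of Gas1, 0 were higher and 2 were lower, both beyond the 3′ end. The stronger of them, 93455 bp away, had 12.8 and 12.9 CPM against 8.25 and 10.2 (log2 -0.50, adjusted p = 0.0215, edgeR). The weaker, 74455 bp away, had 1.84 and 1.95 against 1.03 and 0.992 (log2 -0.90, adjusted p = 0.0253, edgeR). Both lost the call without control 1 (adjusted p = 0.0911 and 0.0774), control 2 (0.117 and 0.145) or Notch2_cKO 1 (0.261 and 0.105).

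Hhip, the decoy that sequesters ligand, had regions at low level, 16 in all, with 3 higher and 2 lower. Nearest its start was a region 3608 bp inside the gene, with 4.37 and 3.76 CPM in the controls and 4.21 and 5.46 in Notch2_cKO, which overlapped. Its highest region, 31050 bp beyond the 3′ end, had 13.3 and 15.6 against 12.9 and 13.8 and also overlapped. The change of smallest p was within the gene at chr8:79992551-79993100, with 6.52 and 5.56 CPM in the controls and 11.2 and 13.0 in Notch2_cKO. That was a 1.98-fold gain (log2 0.99, SE 0.16, adjusted p = 0.000147, edgeR) and held in all 15 alternatives. Its 20 neighbours had a median log2 change of -0.04.

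The other 4 called regions of Hhip had larger p and lower levels. Those beyond the 3′ end rose from 1.07 and 0.854 to 2.36 and 1.30 CPM (log2 1.03, adjusted p = 0.0209, edgeR) and from 0.882 and 0.497 to 1.45 and 1.28 CPM (log2 1.00, adjusted p = 0.0415, edgeR). Both lost the call without control 2 (adjusted p = 0.0991 and 0.316) and without Notch2_cKO 1 (0.67 and 0.268). An intragenic region, chr8:80020451-80020950, fell from 3.15 and 2.72 to 1.37 and 1.61 CPM (log2 -1.01, adjusted p = 0.00492, edgeR), a call lost without Notch2_cKO 1 (0.07) and in DESeq2 (0.105). One 8240 bp beyond the 5′ end had 3.67 and 3.58 against 2.31 and 2.54 (log2 -0.60, adjusted p = 0.0442, edgeR), and passed neither without control 1 (0.164), control 2 (0.146) or Notch2_cKO 1 (0.257) nor with TMM (0.0552).

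Gli1, the activator that reports pathway activity in many tissues, had 2 regions and 0 passed the test. The one within the gene, chr10:127338851-127339250, measured 25.2 and 24.9 CPM in the controls and 21.5 and 24.8 in Notch2_cKO (log2 -0.12, SE 0.12, adjusted p = 0.52, edgeR). Both Notch2_cKO libraries were below the controls, replicate 2 only just. The other, 821 bp outside the gene, had 9.27 and 10.9 against 9.93 and 10.6 and overlapped (log2 0.01, SE 0.15, adjusted p = 0.961, edgeR).

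Gli2, the main activator, held 52 of the 146 regions and the strongest changes in both directions. It had 13 regions higher and 5 lower, or 25.0% higher, beside a median of 13.7% over the 742 genes with 20 or more regions. Of those 742 genes, 15.9% had a share at least as large. At its start, chr1:119053401-119054000 overlapped the promoter window and measured 52.9 and 55.4 CPM in the controls and 51.5 and 47.6 in Notch2_cKO (log2 -0.12, SE 0.10, adjusted p = 0.399, edgeR). Both Notch2_cKO libraries were just below the controls.

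Gains were found mostly far from the gene's 5′ end and within the gene. Among the 9 regions more than 50 kb beyond it, 5 were higher (55.6%) and 0 lower, with a median log2 change of 1.04. The 11 regions up to 50 kb beyond it gave 2 higher and 1 lower. The 25 regions within the gene gave 5 higher and 3 lower, and the 7 beyond its 3′ end 1 higher and 1 lower. Over all regions, at any distance, 12.4% were higher and 11.2% lower. The split at 50 kb was not part of the planned design and only describes this locus. At 98545 bp, chr1:119152701-119153250 measured 2.44 and 3.04 CPM in the controls and 16.8 and 13.8 in Notch2_cKO. This 5.62-fold gain (log2 2.49, SE 0.18, adjusted p = 2.04e-08, edgeR) rested on 55, 77, 520 and 177 raw counts. At 95895 bp, chr1:119150001-119150650 measured 6.99 and 7.26 CPM against 18.8 and 15.7 (log2 1.29, SE 0.15, adjusted p = 4.40e-06, edgeR). In both, the Notch2_cKO libraries were far above the controls, and the 20 neighbours of each had median log2 changes of 0.30 and 0.41.

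The remaining 3 of these distal gains had log2 changes of 1.94, 1.78 and 1.04 at 68795, 53895 and 74845 bp. Followed region by region, each of the 5 passed upward in all 15 alternatives run at 100 kb, control 2 left out included. The nearest other gene, Inhbb, lay 262513 bp or more from each of them. Just past the 100 kb limit, a region 109.6 kb from Gli2 and assigned to no gene had 2.11 and 1.88 CPM against 3.59 and 2.69 (log2 0.70). At the limits of the other members, the regions just inside and just outside had log2 changes between -1.44 and 0.61.

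**Figure D3:**
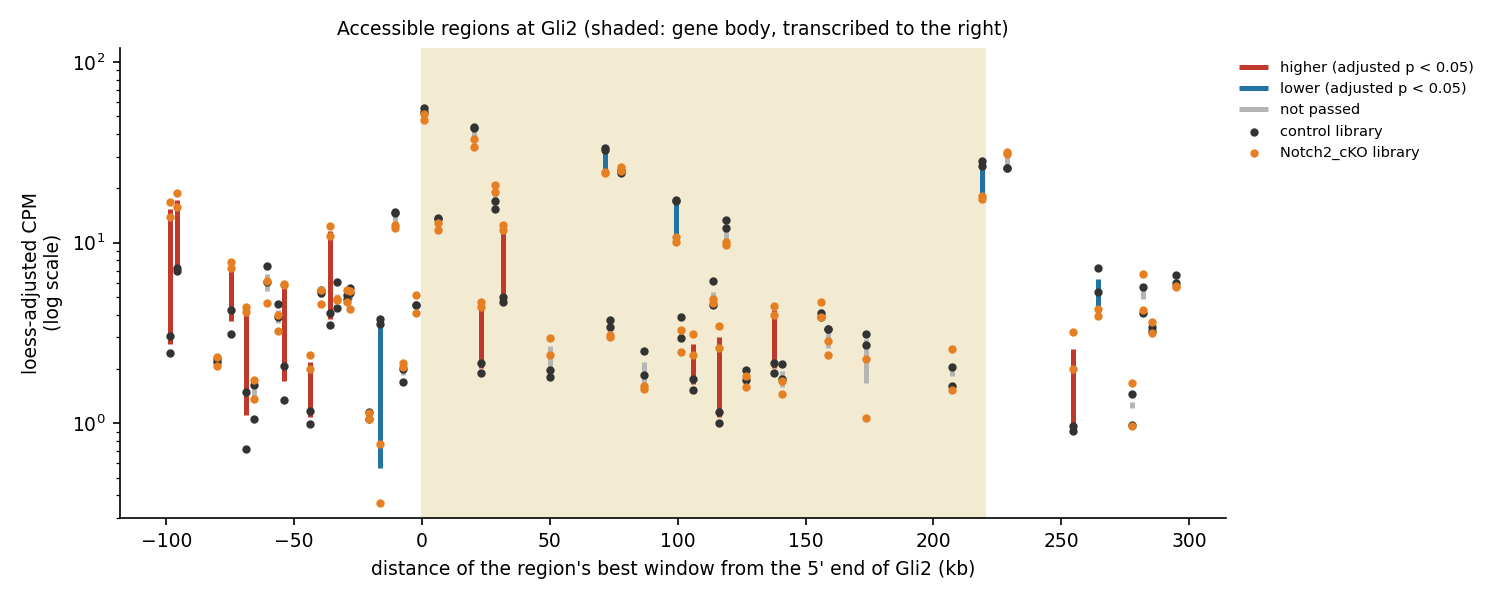
Accessibility (loess-adjusted CPM, log scale) of the 52 regions of Gli2 against the distance of each from the 5′ end of the gene in kb, with the gene body shaded; points are single libraries and vertical lines join the group means, coloured by the edgeR call. The start region stays at 47.6 to 55.4 CPM in all 4 libraries, while 5 of the 9 regions more than 50 kb to its left are higher in both Notch2_cKO libraries.

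Nearer the start, 1 region was lower and 2 were higher, with regions that did not pass between them. At 36045 bp beyond the 5′ end, chr1:119090151-119090800 measured 3.51 and 4.06 CPM in the controls and 12.3 and 10.9 in Notch2_cKO (log2 1.63, SE 0.17, adjusted p = 1.07e-06, edgeR). At 16395 bp, chr1:119070451-119070950 measured 3.54 and 3.77 CPM in the controls and 0.361 and 0.767 in Notch2_cKO. This was the strongest loss among the 146 regions (log2 -2.89, SE 0.31, adjusted p = 1.88e-06, edgeR), from 81 and 94 raw counts to 11 and 10. Its 20 neighbours had a median log2 change of 0.00.

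Inside Gli2 the lower regions were strong sites that stayed open. One near the 3′ end of the gene, chr1:118835101-118835800, measured 26.6 and 28.2 CPM in the controls and 17.4 and 18.2 in Notch2_cKO (log2 -0.63, SE 0.12, adjusted p = 0.000914, edgeR). Another, chr1:118954951-118955500, had 17.3 and 17.1 against 10.7 and 10.1 (log2 -0.72, SE 0.14, adjusted p = 0.00075, edgeR). The libraries of each genotype lay close together at both sites, and both genotypes were well apart. The 6 called regions of Gli2 named by the rule passed in all 15 alternatives, and its start region passed only with the centring given above.

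Gli3, which mainly acts as a repressor, had 27 regions with 7 higher and 1 lower, or 25.9% higher. Of the 742 genes with 20 or more regions, 13.7% had a share at least as large. Its start region, chr13:15462951-15463450, lay 523 bp before the gene and measured 75.0 and 70.4 CPM in the controls and 81.0 and 77.0 in Notch2_cKO (log2 0.12, SE 0.09, adjusted p = 0.355, edgeR). Both Notch2_cKO libraries were above both controls, without passing the test, and the sign turned with scaling (log2 -0.10 with TMM, -0.09 with DESeq2 size factors). Of the 16 regions within the gene, 6 were higher and 1 was lower. The strongest gain, at chr13:15521551-15522050, went from 2.05 and 2.46 CPM to 5.61 and 6.46 (log2 1.39, SE 0.20, adjusted p = 4.07e-05, edgeR).

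A region 4777 bp inside Gli3 rose from 3.39 and 2.26 CPM to 5.77 and 6.77 (log2 1.14, adjusted p = 0.000442, edgeR). A further one, 50627 bp inside, rose from 2.45 and 2.58 to 5.00 and 4.38 (log2 0.92, adjusted p = 0.00202, edgeR). These 3 gains passed in all 15 alternatives. The lower region, at 81827 bp, had 6.33 and 5.62 CPM against 4.41 and 3.93 (log2 -0.50, adjusted p = 0.0495, edgeR). It did not pass without control 1 (0.281), control 2 (0.0968), Notch2_cKO 1 (0.0905) or Notch2_cKO 2 (0.108), nor with TMM (0.0651).

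**Figure D4:**
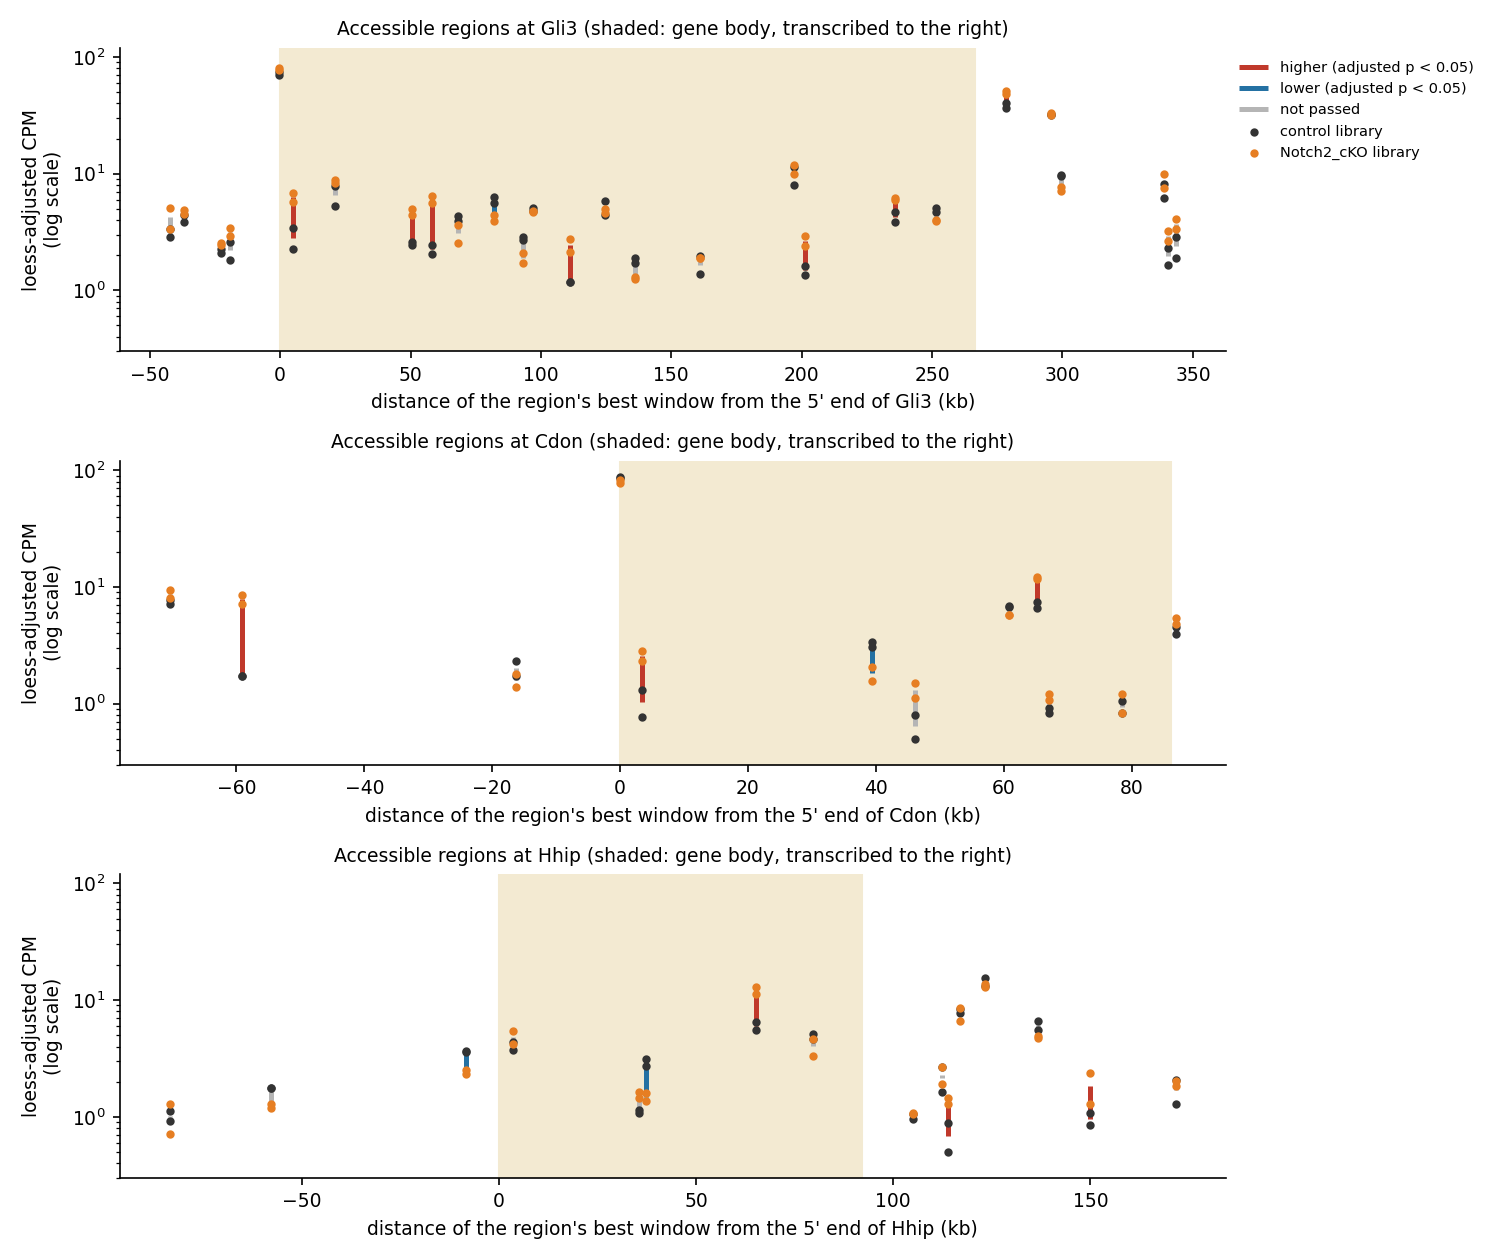
Accessibility (loess-adjusted CPM, log scale) of the regions of Gli3, Cdon and Hhip against their distance in kb from the 5′ end of each gene, drawn as for Gli2. Gli3 and Cdon have their highest region at the 5′ end of the gene with the 4 libraries close together, and Hhip has none there. The changed regions of Cdon and those within Gli3 stay at or below 12.1 CPM.

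Counts summed over all regions of a gene give 1 value per gene. Gli3 summed to 269 and 251 CPM in the controls and 296 and 291 in Notch2_cKO, a rise of 13.1% (log2 0.18, SE 0.06, adjusted p = 0.0443, edgeR over 17673 genes). It was the only member to pass, in a fit where 10.3% of genes were higher and 18.5% changed in either direction. The call was lost without control 1 (adjusted p = 0.0974), without control 2 (0.432), with a replicate block (0.0882) and with TMM (0.208). Among the 10138 genes with 3 or more regions, the sums of Mat2b, Zscan18 and Nhsl1 followed the 4 libraries most like those of Gli3. Their Euclidean distances on centred log2 values over the 4 libraries were 0.0101, 0.0152 and 0.0173. With only 4 values per gene and 10138 genes searched, near matches were bound to be found. These distances therefore give no information on shared regulation. The sums of Mat2b and Zscan18 did not pass (adjusted p = 0.0603 and 0.0921, edgeR).

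The sums of the other 8 genes did not pass the test with all 4 libraries. Gli2 summed to 439 and 466 CPM in the controls and 507 and 437 in Notch2_cKO, which overlapped (log2 0.06, SE 0.07, adjusted p = 0.537, edgeR). Hhip had 64.4 and 62.2 against 64.5 and 77.5 (log2 0.15, SE 0.09, adjusted p = 0.268, edgeR) and Boc 63.8 and 65.3 against 69.4 and 74.6 (log2 0.15, SE 0.08, adjusted p = 0.195, edgeR). For Ptch1, Smo, Cdon, Gas1 and Gli1 the log2 changes of the sums were 0.02, 0.00, 0.04, 0.06 and -0.09, with SE of 0.06 to 0.11. The sums of Gli2 and Hhip depended on single libraries. The log2 change was 0.17 for Gli2 without Notch2_cKO 2 and 0.29 for Hhip without Notch2_cKO 1.

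Other genes of the pathway were read from 4 lists with 344 regions, of which 43 were higher and 42 lower (12.5% and 12.2%). Over all regions the shares were 12.4% and 11.2%, close to those of the lists. Genes for ligands and their release had 22 higher and 12 lower of 105, intracellular regulators 6 and 6 of 75, cilium genes 2 and 2 of 34, and candidate targets known from other tissues 13 and 22 of 130. Without control 2 the 344 regions gave 31 higher and 23 lower. Near Hhat, whose product attaches a lipid to the ligand, a region 25031 bp away rose from 6.87 and 6.08 CPM to 15.7 and 15.1 (log2 1.25, adjusted p = 5.80e-06, edgeR). Within Lrp2, an endocytic receptor, one fell from 2.67 and 2.63 to 0.364 and 0.688 (log2 -2.49, adjusted p = 1.65e-05, edgeR). Within Gsk3b, a kinase that takes part in the phosphorylation of Gli proteins before their processing, one rose from 2.18 and 1.39 to 7.32 and 7.85 (log2 2.09, adjusted p = 9.82e-07, edgeR).

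Among the candidate targets, a region 27411 bp from Spp1, the gene of osteopontin, rose from 0.712 and 0.635 CPM to 7.71 and 6.69 (log2 3.43, adjusted p = 1.51e-08, edgeR). Near Ccnd2, a cell cycle cyclin, 5 of 12 regions were lower and 0 higher (all regions: 11.2% and 12.4%). One of these, 33812 bp from the gene, fell from 29.3 and 27.4 to 8.43 and 9.68 CPM (log2 -1.66, adjusted p = 1.11e-07, edgeR). Spp1 and Ccnd2 are also controlled by other pathways, and these regions were not linked to Hedgehog signalling by any measurement here.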

How the data were processed

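ATAC-seq libraries of 2 genotypes, 2 each, were used as deposited. Per the labels, the authors made loess-normalized peak counts in csaw. The deposited values are whole-number counts with totals that differ between libraries, and were treated as counts. Per the submitters' processing notes, the tools were Bowtie2 2.4.5, Trim Galore 0.6.7 with cutadapt, deepTools, Picard 2.27.5 and SAMtools 1.14, on mm10. The peak caller and any transposase shift of reads were not given in the sources used here, and such a shift would move window edges by a few bases. Exons and introns were not told apart.

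The 678058 windows were merged and assigned as described above. Loess offsets (limma 3.58.1) and edgeR 4.0.16 in R 4.3.3 gave quasi-likelihood tests of genotype, without a replicate term, adjusted by Benjamini and Hochberg. SE is the log2 change divided by the square root of F. The steps were tested on simulated data. An exact permutation test of 2 against 2 libraries cannot go below p = 0.333 (two-sided), so none is given. Named are, per member gene, the region nearest the start (or gene end), the highest, and up to 3 called of smallest p in each direction. For other lists up to 2 were eligible. The 3 further distal regions of Gli2 were chosen after their values were seen. Members and lists were chosen with earlier results of these data known. Alternatives were other scalings, DESeq2 1.42.0, limma-trend, filters, thresholds, distances, a replicate block and each library left out.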

Additional observations from a re-analysis of the deposited data

How the results depend on the processing

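The 146 member regions gave 27 higher and 14 lower calls. DESeq2 gave 18 and 5 (7.12% and 5.27% of all regions, against 12.4% and 11.2%). An adjusted p below 0.01 gave 20 and 7 (7.71% and 6.41% of all). Genes within 10 kb gave 14 and 9 of the 79 member regions left (17.7% and 11.4%). For the 4 other lists (43 and 42), the same settings gave 20 and 11, 27 and 23, and 25 and 19, the last again over fewer regions. Leaving out 1 library gave 21 to 31 higher and 4 to 17 lower members, and 30 to 48 higher and 23 to 49 lower in the lists. The group with 1 library left is then assumed to vary like the other. The number of member genes higher on summed counts (1) was 0 with TMM, DESeq2 size factors and the replicate block, and 0 to 2 with 1 library left out. The cause was not tested. No called result changed sign. Of the 38 named regions, 9 that did not pass had the other sign in at least 1 alternative. Of 25 named called regions, 13 passed in all 15 alternatives run for single regions. With the replicate block the members gave 24 higher and 10 lower (11.1% and 9.94% of all). Same-numbered libraries deviated with a correlation of -0.15, which gives no sign of pairing by number. With 2 libraries per genotype this single value cannot exclude pairing. A crossed block, chosen after seeing the data like the centring on each library's own median, gave 37 higher and 20 lower (16.4% and 15.3% of all). Regions of low count limit precision, which the share passing does not measure. Regions under 2 CPM passed in 18.4% of cases over all regions and in 24.3% of the 37 such members. At 20 CPM or more the shares were 12.3% and 17.6%.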
